A study of Drosophila melanogaster with 6 samples.

Results

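Retrotransposons of the Gypsy superfamily were followed in total RNA from Drosophila melanogaster ovaries with and without the germ cell nuclear gene Gcna. They are the rows of the deposited table whose name carries the superfamily Gypsy and the class LTR, which gave 105 of 13216 rows. The 105 rows belong to 60 elements. For 45 of these the table lists both an internal part (names ending in I-int or I_DM) and an LTR, for 4 only an internal part, for 5 only an LTR, and 6 rows carry no part in their name. Ovaries came from females aged 1 to 3 days that had been fed wet yeast for 24 hours, in stocks kept at 25 °C. The wild type was the strain wBerlin (3 libraries, called wild type). The mutant carried a null allele of Gcna made with a CRISPR knock-in/knock-out construct, and had been outcrossed to wBerlin for 10 generations (3 libraries, called GCNA null). A chromosome segment that was not replaced by the outcross, and any transposon insertion on it, would differ between the stocks along with Gcna.

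Gypsy superfamily elements are retrotransposons with the gene order of retroviruses. The internal part carries gag, which encodes the structural proteins of the particle, and pol, which encodes protease, reverse transcriptase, RNase H and integrase. Both ends are long terminal repeats (LTRs), which hold the promoter and the polyadenylation signal, so that a full-length transcript starts in the 5′ LTR and ends in the 3′ LTR. Members of the gypsy group also carry, or descend from elements that carried, an env gene for an envelope protein, and several of them, such as gypsy, ZAM and Idefix, are known for expression in the somatic follicle cells that surround the germline. In both tissues of the ovary such elements are silenced by piRNAs, small RNAs bound to Piwi proteins, which in follicle cells come largely from the flamenco locus. Loss of this silencing is known to raise the RNA of many elements.

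The libraries held 38401723 to 55758180 reads counted in rows, of which 124372 to 229379 fell in Gypsy rows. Values are normalized counts, in which 1 read is worth 0.789 to 1.15. Gcna itself, listed as CG14814, had 20676, 18292 and 19581 normalized counts in wild type against 493, 428 and 520.4 in GCNA null, low in every library labelled as null. GCNA null replicates 1 and 2 were counted as 1 sample, their mean: over the 105 Gypsy rows the chi-square of their reads was 1.20 per degree of freedom (p = 0.077), about what sampling noise gives, whereas for the other 5 within-group pairs it was 6.70 to 152.8. Over all rows the value for replicates 1 and 2 was 1.62, slightly more than sampling alone gives, against 25.2 to 93.6 for the other pairs. Means ± SD below are over 3 wild type and 2 GCNA null samples, and values per library are always given in the order of replicates 1 to 3. The labels do not state whether replicate ovaries were dissected from different flies, and a p-value here covers only the scatter of these libraries, which could be technical. Transcripts of 11 eggshell genes, markers of late follicle cells, took 2.37% to 2.64% of the reads in wild type, 1.04% and 0.988% in GCNA null replicates 1 and 2, and a share within the wild type range in replicate 3. In whole ovaries fewer cells of a type and less RNA per cell cannot be told apart. Summed over 6 germline markers (vas, nos, osk, bam, otu and bgcn) the libraries held 157746 to 183036 normalized counts in wild type and 148869 to 151953 in GCNA null. All 6 had negative log2 differences. In 3 of them (vas, otu and bgcn) every GCNA null library lay below every wild type library (19.3% of all rows tested). Over 7 markers of the follicle epithelium (tj, Fas3, ct, slbo, peb, upd1 and eya) the libraries held 12795 to 13104 in wild type and 14871 to 15579 in GCNA null. In 3 of these 7 (tj, Fas3 and peb) every GCNA null library lay above every wild type library (19.6% of all rows tested). In the other 4 the groups overlapped, and slbo had a negative log2 difference (-0.17).

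Gypsy elements were mostly measured at higher levels in GCNA null ovaries, clearly in replicates 1 and 2 and much less in replicate 3. Relative to the wild type mean, 89 rows were higher in the former (median log2 difference 0.40) and 61 in the latter (0.055). All 105 rows reached the minimum of 10 normalized counts in at least 3 libraries, so none was left out. Of these, 14 were higher and 1 was lower (limma, Benjamini-Hochberg adjusted p under 0.05 over 10132 rows), that is 13.3% and 0.952% of the Gypsy rows, beside 4.25% and 2.11% of all rows tested. The 14 rows belong to 11 elements, and 11 of them rose at least 2-fold. The log2 difference was positive in 82 rows and negative in 23, with a median of 0.22 over the Gypsy rows and of -0.00045 over all rows. It ranged from -0.62 to 2.60. With quantile normalization the median was 0.032 and 58 rows were positive, against 0.22 and 82 with TMM scaling. In 32 rows every GCNA null library lay above every wild type library (30.5%; 19.6% of all rows tested) and in 6 every one lay below (5.71%; 19.3% of all rows tested). The number of higher rows was 9, 8 and 9 without wild type replicate 1, 2 or 3. Over all rows tested it fell from 431 to 270, 260 and 222 in the same settings. Without GCNA null replicates 1 and 2 the median over the Gypsy rows was 0.055, with 61 positive. With 1 GCNA null sample left, its spread is assumed to be that of wild type. With all 6 libraries taken as separate samples 22 Gypsy rows were higher and 3 lower (9.23% and 7.39% of all rows), and with DESeq2 also 22 and 3 (7.45% and 5.35%). edgeR called 15 and 1 (4.52% and 1.92% of all rows), and limma-voom 17 and 1 (4.93% and 2.18%).

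**Figure D1:**
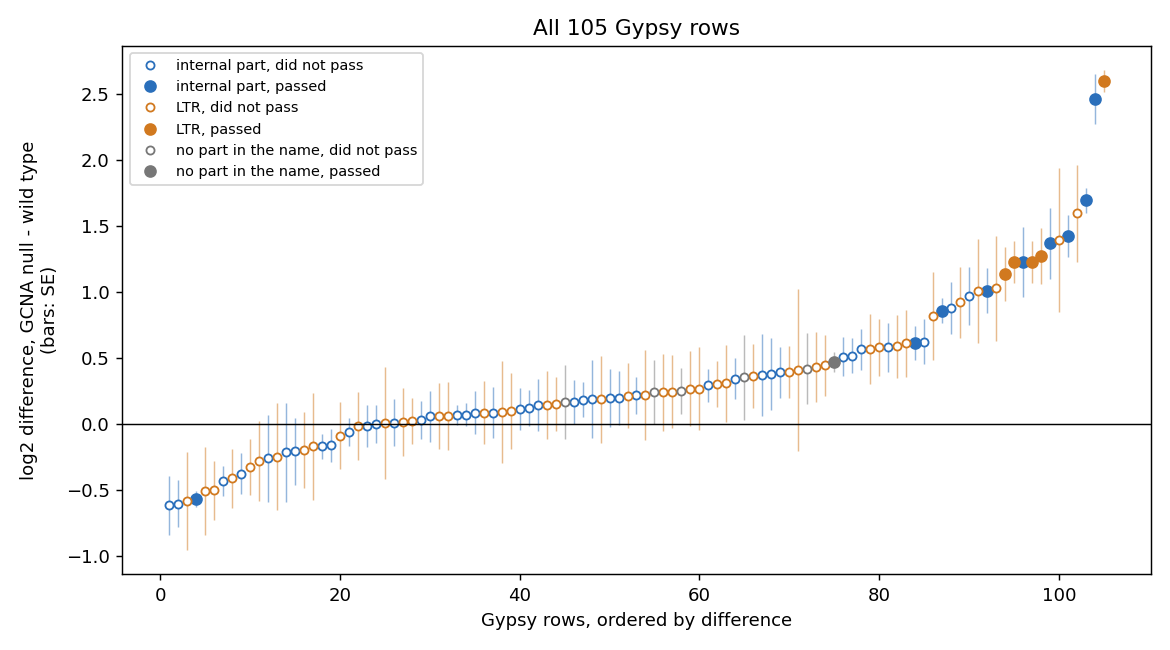
Log2 difference between GCNA null and wild type (y axis; bars are the limma standard error) for the 105 Gypsy rows in order of difference (x axis), coloured by the part of the element, with filled points for rows that passed the test. The 14 higher rows lie between 0.47 and 2.60, the 1 lower row lies at -0.57, and 82 of the 105 points lie above 0.

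How reads that fit several rows were assigned was not given, so values of closely related rows (Gypsy12_LTR and Gypsy12A_LTR, or Gypsy and Gypsy_DS) could share or split reads, and the strand setting is likewise unknown. Each row pools all genomic copies of an element. Values are not divided by length, so they show how a row differs between libraries and not which element is the more abundant.

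In the gypsy group, with 29 rows of 16 elements, 6 rows were higher and 1 was lower, and the median log2 difference was 0.37. Leaving out any 1 wild type library, or quantile scaling, gave 3 higher rows, and leaving out GCNA null replicates 1 and 2 gave 2. The 6 rows are the internal parts of tom, Idefix, DM176 and DM297 and the LTRs of Idefix and ZAM. TOM_I-int, the internal part of tom, an element first described in Drosophila ananassae, had 523, 394 and 451 normalized counts in wild type against 2999, 3043 and 2056 in GCNA null. Every GCNA null library lay far above every wild type library, with replicate 3 the lowest of the GCNA null libraries; the row rose from 456 ± 64.3 to 2539 ± 682 (log2 difference 2.46 ± 0.19 SE, adjusted p = 0.0014 by limma). Its relatives DM176 and DM297 moved the same way, but how reads that fit several related rows were assigned was not given. DM176_I-int had 1351, 963 and 1307 normalized counts in wild type against 4121, 4250.2 and 2272 in GCNA null (log2 difference 1.37 ± 0.27 SE, adjusted p = 0.036 by limma). DM297_I-int had 5233, 3883 and 4288 normalized counts in wild type against 14222, 14480.2 and 7514 in GCNA null (log2 difference 1.23 ± 0.27 SE, adjusted p = 0.048 by limma). In both rows the groups were separate. Replicate 3 of the GCNA null ovaries, however, stood well below replicates 1 and 2 and closer to wild type. DM176_I-int and DM297_I-int passed in 3 and 3 of the 7 settings that left out libraries, in none of those without a wild type library. These 7 settings include leaving out GCNA null replicate 1 or replicate 2 alone, where the near-identical other replicate stood for the sample. All 15 called Gypsy rows passed in both of these.

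Idefix and ZAM, which are known as follicle cell elements controlled by flamenco, also rose in part. IDEFIX_I-int had 822, 690.4 and 819 normalized counts in wild type against 2429, 2476 and 1761 in GCNA null, a rise from 777 ± 75.0 to 2107 ± 489 (log2 difference 1.42 ± 0.16 SE, adjusted p = 0.0054 by limma). The LTR of the same element, IDEFIX_LTR, had 326, 244 and 324 normalized counts in wild type against 728, 736 and 657 in GCNA null (log2 difference 1.23 ± 0.16 SE, adjusted p = 0.01 by limma). Both parts of Idefix thus rose, with no overlap between the groups, and passed in 7 and 6 of the 7 settings that left out libraries. ZAM_LTR had 47.7, 46.5 and 51.2 normalized counts in wild type against 109, 122 and 99.6 in GCNA null (log2 difference 1.13 ± 0.20 SE, adjusted p = 0.029 by limma), from 491 reads over all 6 libraries. It passed in 2 of these 7 settings, those that left out GCNA null replicate 1 or replicate 2 alone. ZAM_I-int did not pass: it had 207, 224 and 249 normalized counts in wild type against 292, 312 and 205.3 in GCNA null (log2 difference 0.14 ± 0.20 SE, adjusted p = 0.71 by limma), so the groups overlapped and GCNA null replicate 3 lay below every wild type library.

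The element gypsy itself, for which the superfamily is named, did not pass the test. Gypsy_I-int had 584, 591 and 706 normalized counts in wild type against 995, 969.7 and 813 in GCNA null (log2 difference 0.52 ± 0.13 SE, adjusted p = 0.076 by limma), and Gypsy_LTR had 83.2, 83.5 and 104 normalized counts in wild type against 122, 132 and 109.7 in GCNA null (log2 difference 0.39 ± 0.20 SE, adjusted p = 0.29 by limma). In both rows all GCNA null libraries lay above all wild type libraries. Its close relative gtwin pointed the other way in both parts, with overlapping groups. GTWIN_I-int had 6220.3, 8874 and 9778 normalized counts in wild type against 4456, 4434 and 6337 in GCNA null (log2 difference -0.62 ± 0.22 SE, adjusted p = 0.17 by limma). GTWIN_LTR had a log2 difference of -0.33 (adjusted p = 0.41 by limma). The remaining rows of the group without a call comprised rover, Quasimodo, accord, nomad, gypsy5, DMTOM1_LTR and the LTRs of DM176 and DM297, with log2 differences from -0.59 (DMTOM1_LTR) to 0.82 (NOMAD_LTR), and both rows of Tirant and Burdock.

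The only Gypsy row that passed the test as lower was the internal part of HMS-Beagle, an element known for germline expression. HMSBEAGLE_I-int had 2279, 2170.5 and 2257 normalized counts in wild type against 1515, 1553 and 1483 in GCNA null, so the groups were well separated and the GCNA null libraries lay close together. The row went from 2236 ± 57.4 to 1508 ± 36.1 (log2 difference -0.57 ± 0.060 SE, adjusted p = 0.0048 by limma) and passed in each of the 7 settings that left out libraries. Burdock, another element known as a target of germline piRNAs, had lower values in both parts without passing. BURDOCK_I-int had 1259.6, 890.2 and 1321 normalized counts in wild type against 797, 802 and 704 in GCNA null (log2 difference -0.60 ± 0.18 SE, adjusted p = 0.11 by limma), and BURDOCK_LTR had 63.6, 53.9 and 64.3 normalized counts in wild type against 48.3, 38.7 and 41.3 in GCNA null (log2 difference -0.50 ± 0.22 SE, adjusted p = 0.24 by limma). Both rows were separate between the groups.

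**Figure D2:**
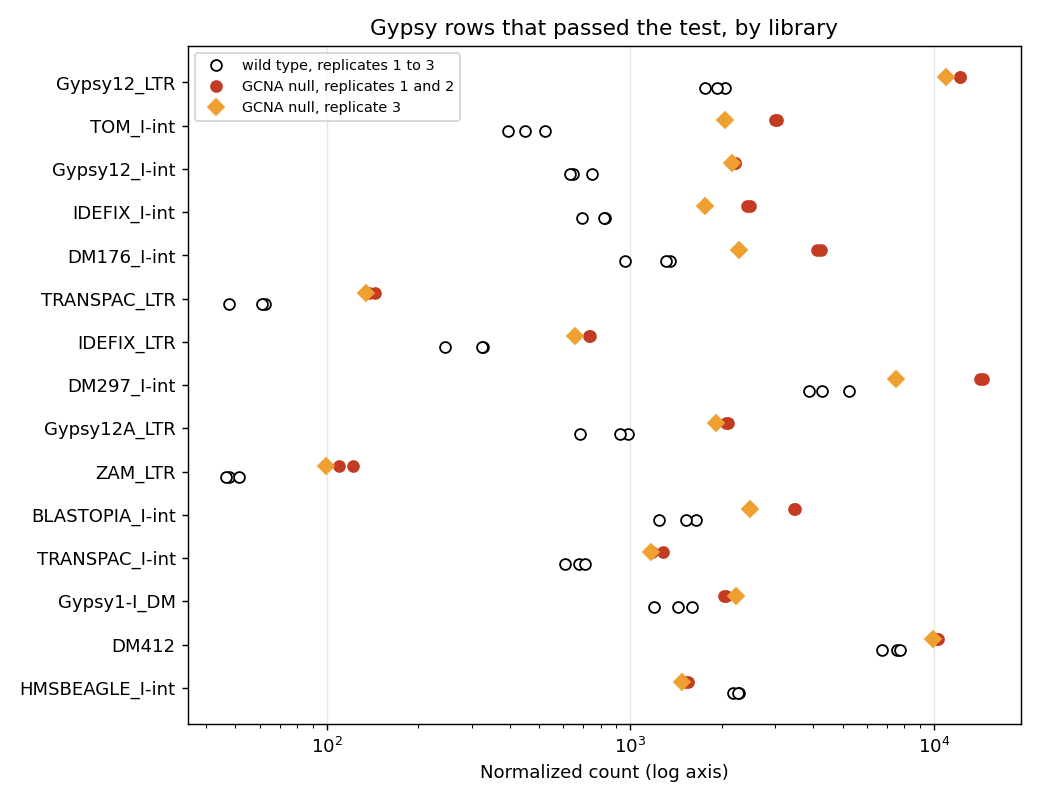
Normalized counts (x axis, log scale) of the 15 Gypsy rows that passed the test (y axis, ordered by log2 difference) in each library; open circles are the 3 wild type libraries, red circles GCNA null replicates 1 and 2, and orange diamonds GCNA null replicate 3. The groups do not overlap in any of the 15 rows, and in 13 of the 14 higher rows GCNA null replicate 3 lies below the mean of replicates 1 and 2.

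Among elements outside the named groups, with 57 rows, 6 rows were higher (median log2 difference 0.21), and these held the largest change of all Gypsy rows. The named groups were fixed lists of elements. Others, such as Gypsy_DS, stayed outside them even where related to a member. Differences between the named groups were not tested. Gypsy12_LTR had 2052, 1931 and 1766 normalized counts in wild type against 12177, 12213 and 10995 in GCNA null. It rose from 1916 ± 144 to 11595 ± 849 (log2 difference 2.60 ± 0.083 SE, adjusted p = 8.7e-05 by limma), and the GCNA null libraries differed from each other by far less than from wild type. The internal part of the same element, Gypsy12_I-int, had 648, 631 and 749 normalized counts in wild type against 2219.7, 2204 and 2154 in GCNA null (log2 difference 1.69 ± 0.096 SE, adjusted p = 0.0005 by limma). A related LTR listed on its own, Gypsy12A_LTR, had 682, 985 and 923 normalized counts in wild type against 2098, 2062 and 1910.4 in GCNA null (log2 difference 1.22 ± 0.16 SE, adjusted p = 0.01 by limma). All 3 rows were separate between the groups, and Gypsy12_LTR and Gypsy12_I-int passed in each of the 7 settings that left out libraries, while Gypsy12A_LTR passed in 6 of them.

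Transpac rose in both of its parts. TRANSPAC_I-int had 608, 678 and 706 normalized counts in wild type against 1182, 1284 and 1171 in GCNA null (log2 difference 0.86 ± 0.095 SE, adjusted p = 0.0057 by limma). TRANSPAC_LTR had 47.7, 62.4 and 61.0 normalized counts in wild type against 138, 144 and 135 in GCNA null (log2 difference 1.27 ± 0.21 SE, adjusted p = 0.022 by limma). In both rows the GCNA null libraries lay close together, about as high in replicate 3 as in replicates 1 and 2. The rows passed in 6 and 2 of the 7 settings that left out libraries, and TRANSPAC_LTR only without GCNA null replicate 1 or replicate 2 alone. Gypsy1-I_DM, an internal part, had 1195, 1438 and 1600.0 normalized counts in wild type against 2069, 2038 and 2236 in GCNA null (log2 difference 0.61 ± 0.13 SE, adjusted p = 0.041 by limma), the only higher row in which GCNA null replicate 3 was the highest library, and it passed in 3 of the 7 settings that left out libraries. Its LTR, Gypsy1-LTR_DM, had a log2 difference of 0.24 (adjusted p = 0.66). Several rows came close to the threshold: QUASIMODO2-I_DM had 191, 219 and 277 normalized counts in wild type against 477, 462 and 368 in GCNA null (log2 difference 0.88, adjusted p = 0.055), Bica_I-int a log2 difference of 0.97 (adjusted p = 0.056), and Invader1_LTR had 1144, 907 and 834 normalized counts in wild type against 4536, 4676 and 1798 in GCNA null (log2 difference 1.59 ± 0.37 SE, adjusted p = 0.059 by limma). In Invader1_LTR the groups were separate, yet GCNA null replicates 1 and 2 held more than replicate 3 by a log2 difference of 1.36, the widest such gap among the Gypsy rows. These 3 rows were chosen after their values were seen.

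In the group of mdg1 and DM412, with 13 rows, 1 row passed, as higher, and the median log2 difference was 0.19. DM412 had 7538, 6730.3 and 7732 normalized counts in wild type against 10251, 10339.6 and 9961 in GCNA null, a rise from 7333 ± 531 to 10128 ± 236 (log2 difference 0.47 ± 0.074 SE, adjusted p = 0.019 by limma). It passed in 5 of the 7 settings that left out libraries, failing without GCNA null replicates 1 and 2 and without replicate 3. A separate LTR row, DM412B_LTR, had a log2 difference of 0.14 (adjusted p = 0.78). The element blood had 2196, 1971 and 1983 normalized counts in wild type against 2070.2, 2041 and 2239.6 in GCNA null in BLOOD_I-int (log2 difference 0.068 ± 0.077 SE, adjusted p = 0.64 by limma), with overlapping groups, and BLOOD_LTR had a log2 difference of 0.19. MDG1_I-int and MDG1_LTR had log2 differences of 0.29 and 0.92 (adjusted p = 0.23 and 0.11), with separate groups in both. None of the Stalker rows passed: STALKER4_I-int, STALKER4_LTR, Stalker2_I-int, Stalker2_LTR and Stalker3_LTR had log2 differences of 0.62, 0.43, -0.17, 1.03 and -0.25 (adjusted p by limma 0.087, 0.38, 0.33, 0.19 and 0.75). Both rows of Tabor pointed in different directions, with -0.43 for TABOR_I-int and 0.085 for TABOR_LTR (adjusted p = 0.082 and 0.86).

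In the mdg3 group, with 6 rows, 1 row passed, as higher. BLASTOPIA_I-int, the internal part of blastopia, had 1644, 1241 and 1525 normalized counts in wild type against 3469, 3485 and 2487 in GCNA null, a rise from 1470.0 ± 207 to 2982 ± 699.8 (log2 difference 1.01 ± 0.17 SE, adjusted p = 0.024 by limma). It passed in 4 of the 7 settings that left out libraries. BLASTOPIA_LTR had 352, 241 and 355 normalized counts in wild type against 516, 540.5 and 409.7 in GCNA null (log2 difference 0.58 ± 0.21 SE, adjusted p = 0.17 by limma), with separate groups. The rows of mdg3 itself had log2 differences of 0.070 (MDG3_I-int) and 0.019 (MDG3_LTR), and those of micropia -0.38 (MICROPIA_I-int) and -0.41 (MICROPIA_LTR). The median of the group was 0.045.

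The LTR and internal rows of an element differed in the same direction in 39 of 45 cases, but not by equal amounts. Of the 45 elements with both rows, 33 had a positive log2 difference in both parts, 6 a negative one in both, 2 only in the internal part positive and 4 only in the LTR. Across the 45 elements, which share the same libraries, the log2 differences of the parts had a Pearson correlation of 0.58 and a Spearman correlation of 0.56 (0.46 without Gypsy12, Pearson). In 3 elements (Gypsy12, Idefix and Transpac) both parts were higher, in 4 elements only the internal part was called, and in ZAM only the LTR. The LTR rows rested on fewer reads, with a median of 384 reads over all libraries against 5368 for the internal rows of these elements. The ratio of the internal to the LTR row was then tested within libraries over 57 paired LTR elements of any superfamily. It rose in 1 and fell in 1 of the 45 Gypsy elements (limma adjusted p under 0.05; 1.75% and 1.75% of all paired elements).

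The ratio that fell was that of ZAM. Its internal row held 4.33, 4.82 and 4.85 times the counts of its LTR row in the wild type libraries and 2.67, 2.55 and 2.06 times in the GCNA null libraries, with no overlap (log2 difference of the ratio -0.99 ± 0.15 SE, adjusted p = 0.024 by limma). The ratio that rose was that of Quasimodo2, at 6.80, 7.39 and 9.41 in wild type and 14.3, 18.3 and 19.3 in GCNA null (log2 difference of the ratio 1.16 ± 0.18 SE, adjusted p = 0.024 by limma). In Quasimodo2 the internal row had a positive and the LTR row, QUASIMODO2-LTR_DM, a negative log2 difference of -0.28, from only 165 reads. Gypsy12 had more counts in its LTR than in its internal row in every library, with ratios of 0.316, 0.327 and 0.424 in wild type and 0.182, 0.180 and 0.196 in GCNA null (log2 difference of the ratio -0.90 ± 0.23 SE, adjusted p = 0.084 by limma). Invader1 was alike in this, with 0.495, 0.392 and 0.665 and 0.178, 0.167 and 0.275 (log2 difference of the ratio -1.21 ± 0.32 SE, adjusted p = 0.084 by limma). The groups did not overlap in the ratio of either element, while they overlapped in 30 of the 45 Gypsy elements. The number of changed ratios moved with the setting. Counting the near-identical GCNA null replicates 1 and 2 as separate gave 11 with 6 separate samples and 9 with the replicate number as a block. The number was 6 with quantile normalization and 1 without wild type replicate 3. With rows of a mean of at least 50 it was 9, but of only 29 Gypsy elements, without Quasimodo2. Without GCNA null replicates 1 and 2 the log2 difference of the ratio was 1.28 in Quasimodo2 and -1.16 in ZAM. Without wild type replicate 1 or without GCNA null replicate 3 limma called 0, with 13 and 10 ratios at an unadjusted p under 0.05.

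**Figure D3:**
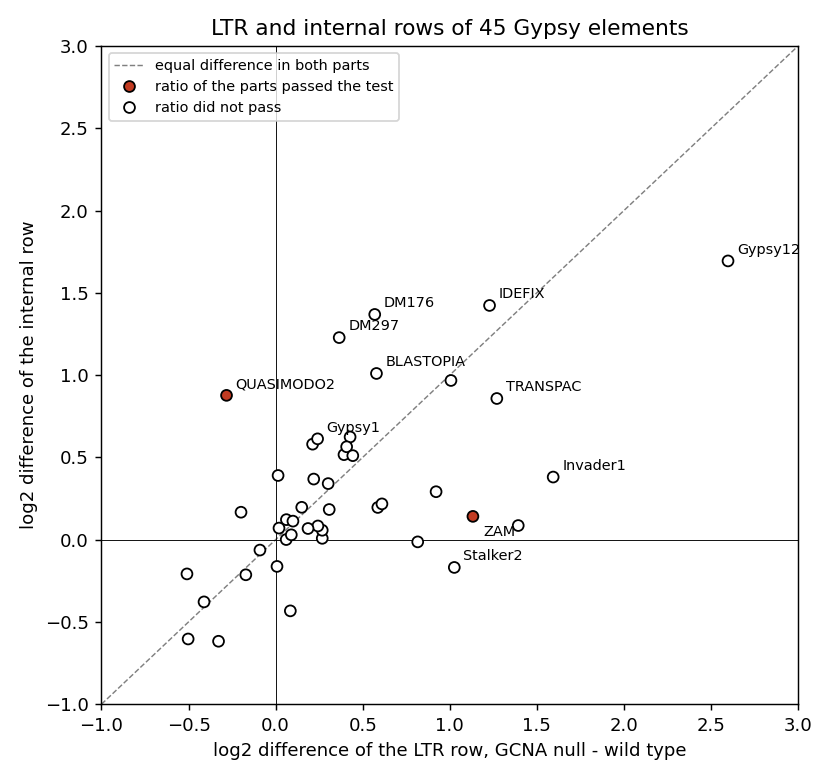
Log2 difference between GCNA null and wild type of the LTR row (x axis) and the internal row (y axis) for each of the 45 Gypsy elements with both rows; the dashed line marks equal differences, and filled points are elements whose internal to LTR ratio passed the test. Gypsy12 lies farthest out at 2.60 and 1.69; ZAM lies at 1.13 and 0.14 and Quasimodo2 at -0.28 and 0.88.

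Counted together, Gypsy rows took 0.289, 0.281 and 0.346 percent of all reads in wild type and 0.405, 0.411 and 0.423 percent in GCNA null, which did not overlap. The means were 0.305% ± 0.0353 (SD, wild type) and 0.416% ± 0.0106 (SD, GCNA null). A large part of these reads came from Tirant, an element of the gypsy group with an env gene. TIRANT_I-int had 56583, 64128 and 78294 normalized counts in wild type against 60504, 60748 and 93498 in GCNA null (log2 difference 0.20 ± 0.22 SE, adjusted p = 0.64 by limma), and TIRANT_LTR had 5267, 6197 and 7519 normalized counts in wild type against 7291, 7194 and 12211 in GCNA null (log2 difference 0.59 ± 0.24 SE, adjusted p = 0.2 by limma). In both Tirant rows GCNA null replicate 3 was the highest library, while replicates 1 and 2 lay within the wild type range. Without the Tirant rows the other 103 Gypsy rows took 0.150, 0.131 and 0.157 percent of reads in wild type and 0.252, 0.257 and 0.194 percent in GCNA null, again without overlap, and here replicate 3 was the lowest GCNA null library. Summed over LTR rows, the libraries held 13443, 14179.6 and 15880.3 normalized counts in wild type and 31839, 31981 and 32007 in GCNA null. Without Gypsy12_LTR, which made up 11.1% to 15.3% of that sum in wild type and 34.4% to 38.2% in GCNA null, the sums were 11392, 12249 and 14115 and 19662, 19769 and 21013.

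**Figure D4:**
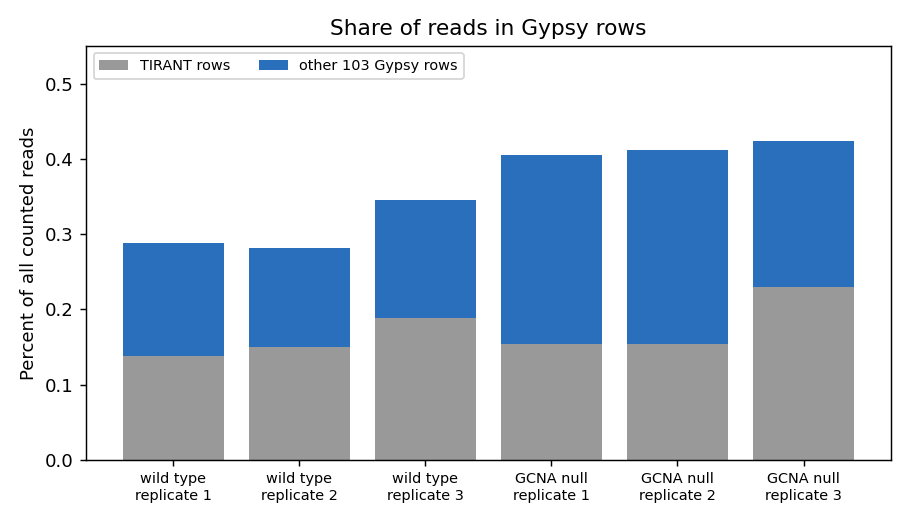
Percent of all counted reads (y axis) in the 2 Tirant rows (grey) and the other 103 Gypsy rows (blue) for each library (x axis). The stacked total is 0.281% to 0.346% in wild type and 0.405% to 0.423% in GCNA null, and Tirant makes up more of it in GCNA null replicate 3 (54.2%) than in replicates 1 and 2 (37.9% and 37.5%).

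The GCNA null samples differed from each other in the size of the rise. Relative to the wild type mean, the mean of GCNA null replicates 1 and 2 was higher in 89 of 105 Gypsy rows with a median log2 difference of 0.40, whereas replicate 3 was higher in 61 rows with a median of 0.055. The mean of replicates 1 and 2 exceeded replicate 3 in 91 Gypsy rows (86.7%), beside 48.5% of all rows tested. In replicates 1 and 2 and in replicate 3, in this order, Gypsy12_LTR had log2 differences of 2.67 and 2.52, TOM_I-int of 2.73 and 2.18, and HMSBEAGLE_I-int of -0.54 and -0.59. Others were larger in replicates 1 and 2, among them DM176_I-int with 1.81 and 0.93, DM297_I-int with 1.69 and 0.76 and Invader1_LTR with 2.27 and 0.92. The reverse was seen in TIRANT_LTR, with 0.21 and 0.96, and in MDG1_LTR, with 0.59 and 1.25. Replicates 1 and 2 were also the libraries with the low eggshell transcripts: all 11 eggshell markers lay below replicate 3 in their mean, and the summed level was 458529 and 434689 normalized counts against 1150124 in replicate 3 and 1062496 to 1237447 in wild type. Summed markers of hemocytes (Hml, NimC1 and Ppn) reached 5273 and 5286 in replicates 1 and 2, 1852 in replicate 3 and 1962 to 4342 in wild type. The same order of values was 46455, 46109.6, 38384 and 42410 to 50628 for 5 muscle genes, 246, 241, 1046 and 304 to 912 for 3 fat body genes, and 439, 439, 268 and 257 to 282 for 3 neural genes. Single genes weighed heavily in some sums. In GCNA null, Ppn had 4752, 4735 and 1560, Lsp2 118, 133 and 915, and elav 426, 423 and 257. Hml had 486, 497 and 259 in GCNA null against 119, 217 and 201 in wild type. Fbp1 had 94.3, 79.7 and 98.6 in GCNA null against 101, 134 and 113 in wild type. The 2 testis genes found in the table summed to at most 8.72 in any library. The part of these differences in the Gypsy values was not tested.

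**Figure D5:**
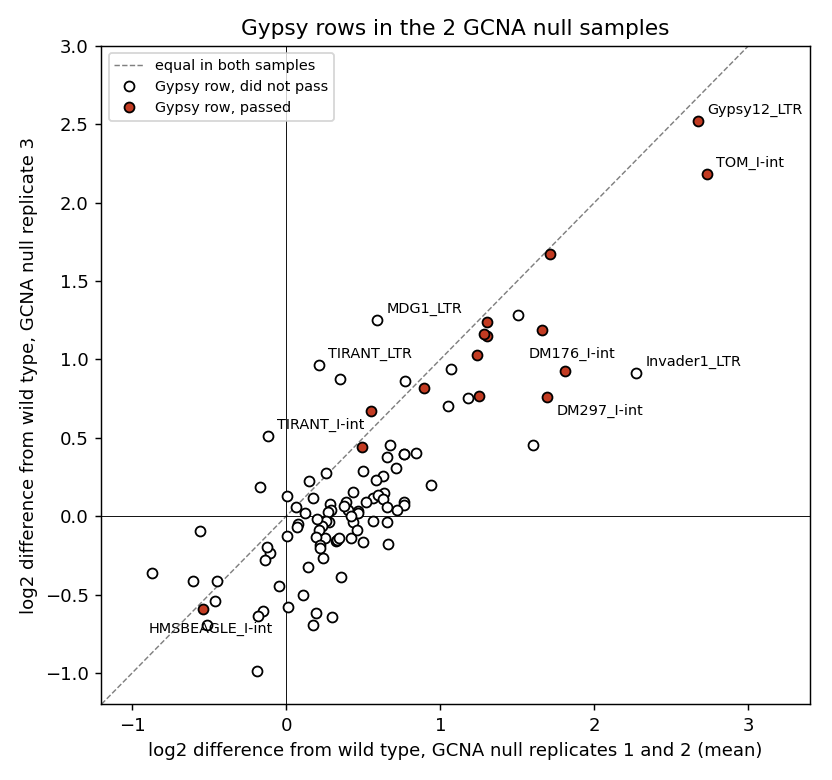
Log2 difference from the wild type mean of the mean of GCNA null replicates 1 and 2 (x axis) and of GCNA null replicate 3 (y axis) for the 105 Gypsy rows; the dashed line marks equal values and red points are rows that passed the test. Points lie below the line in 91 rows, and Tirant and MDG1_LTR lie above it.

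In the other LTR superfamilies, 4 of 9 Copia rows tested were higher (44.4%) and 0 lower, with a median log2 difference of 0.94, and 3 of 16 Pao rows were higher (18.8%) and 0 lower, with a median of 0.11, beside 4.25% higher and 2.11% lower of all rows. All 3 superfamilies are compared with the same wild type libraries, and differences between them were not tested.

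The reference annotation (Ensembl BDGP6, the dm6 assembly) lists insertions under the same name for 42 of the 60 elements, 936 in all, in the genome of the reference strain and not of these stocks. Elements with a called row had a median of 26.5 annotated insertions (8 elements), and the other 34 had 16. Over 38 elements with an internal row the Spearman correlation of insertions with the log2 difference of that row was 0.27. DM297 has 89 annotated insertions, 43 of them at least 4000 bp long, DM176 has 29 with 22 that long, and Transpac has 12 with 11 that long. Gypsy12 has 51, with a median length of 384 bp and only 4 of at least 4000 bp. Invader1, the other element with more counts in its LTR, has 47 with a median of 399 bp. ZAM has 5 annotated insertions and Idefix 20, of which 1 and 7 are at least 4000 bp long. Which copies gave rise to the RNA was not analysed here, since each row pools them.

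Genes of the piRNA pathway, which silences these elements, moved in both directions. Of 36 measured members of 39 listed, 3 were higher and 4 lower (8.33% and 11.1%, beside 4.25% and 2.11% of all rows), with a median log2 difference of -0.0070. The list was chosen with earlier results of these data known. Among genes that act in follicle cells as well as the germline, armi, an RNA helicase of piRNA biogenesis, went down from 13634 ± 446 to 11077 ± 299 (log2 difference -0.30, adjusted p = 0.036 by limma). The cochaperone gene shu and nxf2, whose product acts with Panoramix in silencing nascent transcripts, fell by 0.29 and 0.45 on the log2 scale, and wde, a cofactor of the histone methyltransferase Eggless, rose from 7012 ± 602 to 9230.2 ± 124 (log2 difference 0.40, adjusted p = 0.036 by limma). Among germline factors, qin fell by 0.64 on the log2 scale (qin encodes a Tudor protein of the ping-pong cycle). BoYb, a Tudor protein of the germline, and moon, which promotes transcription of piRNA clusters, had positive log2 differences of 0.45 and 0.57 (adjusted p = 0.0074 and 0.035). piwi itself, needed for silencing in both tissues, had a log2 difference of 0.0049, and fs(1)Yb, which acts in follicle cells, one of -0.13 (adjusted p = 0.98 and 0.78). Other annotated genes overlap armi, shu, nxf2, moon and qin, which makes their values uncertain. The 7 calls became 3, 2 and 2 without wild type replicate 1, 2 or 3. Over all rows the 431 higher and 214 lower calls became 270 and 98, 260 and 95, and 222 and 67. Fewer pathway genes were also called with 1 GCNA null sample left. Relative to wild type, the median over the 36 genes was -9.8e-05 in GCNA null replicates 1 and 2 and -0.035 in replicate 3. With all samples, 13 of the 36 genes had an unadjusted limma p under 0.05, beside 2341 of 10132 rows tested.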

How the data were processed

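Total RNA was sequenced from 3 wild type and 3 GCNA null ovary samples, and the authors deposited 1 table of 13216 rows. Per the labels' protocols, RNA from 18 nt upwards was kept, treated with DNase, depleted of ribosomal RNA and made into strand-specific libraries. CASAVA 1.8.2, STAR 2.5, DESeq2 and dm6 are named in the submitters' processing notes; which repeat annotation, counting tool and strand setting were used is not given in these sources. Values were deposited as a signal: read counts divided by 1 size factor per library. All values of a library were whole multiples of 1 step (within 1e-06), so 100% could be turned back into whole reads.

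Rows reaching 10 normalized counts in 3 or more of the 6 libraries were tested with limma 3.58.1 in R 4.3.3 (trended prior variance), on log2(normalized count + 1), two-sided, GCNA null minus wild type. On that scale changes of low rows come out too small. p-values were Benjamini-Hochberg adjusted over all rows. GCNA null replicates 1 and 2 entered as their mean. The ratio test used the same model. Alternatives were 6 separate samples, a replicate block, libraries left out, other pseudocounts (0.5 and 5) and filters, TMM and quantile scaling, and edgeR 4.0.16, DESeq2 1.42.0 and limma-voom on the recovered reads. The methods were tested on simulated data. With the low counts of some LTR rows, down to 66 reads over all libraries, counting noise adds much to the scatter.

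The members, gene lists and tests were chosen with earlier results of these data known. Rows were named by rule: those called and the other part of their element, the 5 with the highest mean, and the rows of gypsy, ZAM, Idefix, Tirant, DM297, DM176, mdg1, DM412, blood, Burdock, HMS-Beagle, mdg3 and Stalker. Other rows named were chosen after their values were seen. Whether the replicate numbers pair the samples could not be settled. Same-numbered deviations had correlations of -0.18, 0.073 and -0.094 over all rows tested and of 0.19, -0.34 and 0.13 over Gypsy rows. GCNA null replicates 1 and 2 are near-identical, so their deviations cannot show such a pairing.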

Additional observations from a re-analysis of the deposited data

How the results depend on the processing

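All 15 called Gypsy rows kept their direction under every alternative run. Of these, 12 passed in each of the 11 settings that kept all libraries, the exceptions being ZAM_LTR, DM176_I-int and DM297_I-int. With 6 separate samples there were 22 higher and 3 lower rows, 2 higher rows in the group of mdg1 and DM412 and 11 changed ratios. With the replicate block there were 19 and 2, 2 and 9. Whether the replicate numbers pair these samples could not be settled. DESeq2 gave 22 higher and 3 lower rows and 2 in the group of mdg1 and DM412. Quantile normalization gave 2 lower rows, 3 higher rows in the gypsy group, 6 changed ratios and a median log2 difference of 0.032. A minimum mean of 50 gave 9 changed ratios, among 29 Gypsy elements left with both rows. Without GCNA null replicates 1 and 2 there were 4 higher rows, 2 in the gypsy group, 0 in the group of mdg1 and DM412, 0 in the mdg3 group, 1 changed ratio and 0 changed piRNA pathway genes by limma (9 at an unadjusted p under 0.05), with a median of 0.055.

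With 1 library left out, higher rows numbered 8 to 14, lower rows 1 to 2, higher rows of the gypsy group 3 to 6, of the group of mdg1 and DM412 0 to 1 and of the mdg3 group 0 to 1, changed ratios 0 to 2, and piRNA pathway genes 2 to 7, and the median was 0.14 to 0.40. Positive log2 differences numbered 82 as reported, 58 with quantile normalization and 61 without GCNA null replicates 1 and 2, so many rows that did not pass changed sign. Of the rows named by rule alone, those that did so without GCNA null replicates 1 and 2 were Gypsy1-LTR_DM (-0.18), ZAM_I-int (-0.14) and MDG3_LTR (-0.18). Of the same named rows, those with quantile normalization were Gypsy1-LTR_DM (-0.029), ZAM_I-int (-0.039), BLOOD_LTR (-0.12), DM412B_LTR (-0.091) and MDG3_LTR (-0.20). With 1 library left out TIRANT_I-int ranged over -0.12 to 0.32, DM412B_LTR over -0.056 to 0.32 and MDG3_LTR over -0.024 to 0.22. Over all rows tested, higher calls numbered 431 as reported and 270, 260 and 222 without wild type replicate 1, 2 or 3. Fewer samples enter the fits that leave out libraries, except those without GCNA null replicate 1 or 2 alone, where the other stands for both. Otherwise the cause was not tested.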
